A study of Homo sapiens with 4 samples.

Results

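The genes described here encode core components of the spliceosome: the Sm proteins, the proteins particular to the U1 and U2 small nuclear ribonucleoproteins (snRNPs), the tri-snRNP and the factors of the catalytic steps. They were chosen by symbol from a list of 38 genes, of which 37 had a probe set, out of 17687 named genes. The remaining gene, PRPF8, was not analysed here. Expression was measured on 4 arrays of DU145, an established human prostate cancer cell line, after 48 h with vehicle, with No.10-3 at 5 µM, with C-30 at 0.5 µM or with C-30 at 2 µM, here called the lower and the higher C-30 dose. The submitters describe both compounds as inhibitors of PSF, the RNA-binding protein that SFPQ encodes, and DU145 as a model of castration-resistant disease. Each condition had 1 array, so the differences carry neither an error nor a p-value, and precision is limited by there being so few arrays. The values are log2 signals. A difference is the log2 signal of the treated array minus that of vehicle, and a difference of 1 either way is called 2-fold on the scale of these values. No.10-3 and C-30 were given at different doses, so their values are set side by side and not compared, and all 3 treated arrays share the vehicle array.

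The spliceosome removes introns from pre-mRNA. The U1 snRNP pairs with the 5′ splice site, SF1 and the U2AF proteins recognise the branch point and the 3′ splice site, and the U2 snRNP then takes over the branch point with the help of its SF3a and SF3b complexes. The tri-snRNP of U4, U6 and U5 joins, helicases rearrange the RNA, and the Prp19 complex accompanies the active form through both chemical steps, after which further helicases release the mRNA and take the machine apart. A ring of Sm proteins forms the common core of the U1, U2, U4 and U5 snRNPs. Human cells need these proteins at all times, and PSF itself takes part in splicing.

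The 4 arrays had Pearson correlations of 0.979 to 0.987 across named genes. Between 30.5% and 33.9% of named genes lay, on each array, above the background level, meaning the value that 95% of the 612 negative controls do not exceed (7.06 to 7.32). Of the 37 genes, 34 were above it on all 4 arrays, SF3B1 and SLU7 were under it on 1 array, and SF1 was under it on all 4. The keratin genes KRT8, KRT18 and KRT19, EPCAM and VIM were above it on every array, whereas the cadherin genes CDH1 and CDH2 were not. The prostate luminal genes KLK2, KLK3 and TMPRSS2, and all 3 endothelial markers, were under it on every array, as were 3 of the 4 leukocyte markers (all but CD68) and 3 of the 4 fibroblast markers. Of the labelling and spike controls, the 4 Bacillus subtilis transcripts were lower on every treated array. Their median differences were -0.34 with No.10-3, -0.28 at the lower C-30 dose and -0.46 at the higher C-30 dose. Single transcripts differed by -0.80 to -0.01 at the lower C-30 dose. The median signal of these transcripts, 6.28 to 6.93, was under the background level on every array, so these differences are inexact. The 4 hybridization controls differed from vehicle by -0.41 to -0.32 with No.10-3. They differed by -0.01 to 0.11 at the lower C-30 dose and 0.10 to 0.15 at the higher C-30 dose. Of the 2197 positive control probe sets, 6.55%, 8.06% and 11.3% differed from vehicle by at least 2-fold on the 3 treated arrays. The 63 ERCC probe sets had robust SDs of 0.126, 0.166 and 0.271. The part of these shifts in the results was not tested. SFPQ, the gene of the target protein, had signals of 12.59 with vehicle, 12.61 with No.10-3, 12.60 at the lower C-30 dose and 12.68 at the higher C-30 dose.

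Most core spliceosome genes stayed close to their vehicle signal. These are bulk signals, in which fewer cells of a kind and less RNA per cell cannot be told apart. With No.10-3, 0 of the 37 passed 2-fold, against 5.2% of the 8852 genes whose mean signal reached the floor of 5.56, the median of all named probe sets (4.08% higher and 1.12% lower). All 37 genes passed that floor. At the lower C-30 dose, 1 gene passed, 2.70% of the 37 against 5.93% of all genes past the floor (3.25% higher and 2.68% lower). It was CDC40, a factor of the second catalytic step, at 1.37. At the higher C-30 dose, 3 genes passed, 1 higher and 2 lower, or 8.11% against 10.4% (4.26% higher and 6.12% lower). CDC40 was higher by 1.95 (3.87-fold). DHX8, the helicase that releases spliced mRNA, differed by -1.18 (2.27-fold lower), and SNRNP70, an RNA-binding protein of the U1 snRNP, by -1.10 (2.14-fold lower). SNRNP70 stood at -0.89 after quantile normalization over named genes and at -0.94 after a lowess correction for signal, no longer past 2-fold. These shares are near those of all genes or under them.

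The medians of the 37 genes were 0.08 with No.10-3, -0.05 at the lower C-30 dose and -0.06 at the higher C-30 dose, beside 0.05, -0.04 and -0.06 for all genes past the floor. Each median of the 37 genes changed sign under at least 1 other scaling of the arrays, so no direction is drawn from them. Differences smaller than 0.5 either way were found for 30 of the 37 genes with No.10-3, 26 at the lower C-30 dose and 27 at the higher C-30 dose. That is 81.1%, 70.3% and 73.0% of them, against 71.3%, 67.7% and 60.6% of all genes past the floor. The distance between the highest and the lowest of the 4 arrays had a median of 0.56 over the 37 genes, against 0.68 over all genes past the floor. It reached 1 for 4 of the 37 genes, CDC40, DHX8, SNRNP70 and PRPF6. Among all genes past the floor it did so for 1869 of 8852, or 21.1%.

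**Figure D1:**
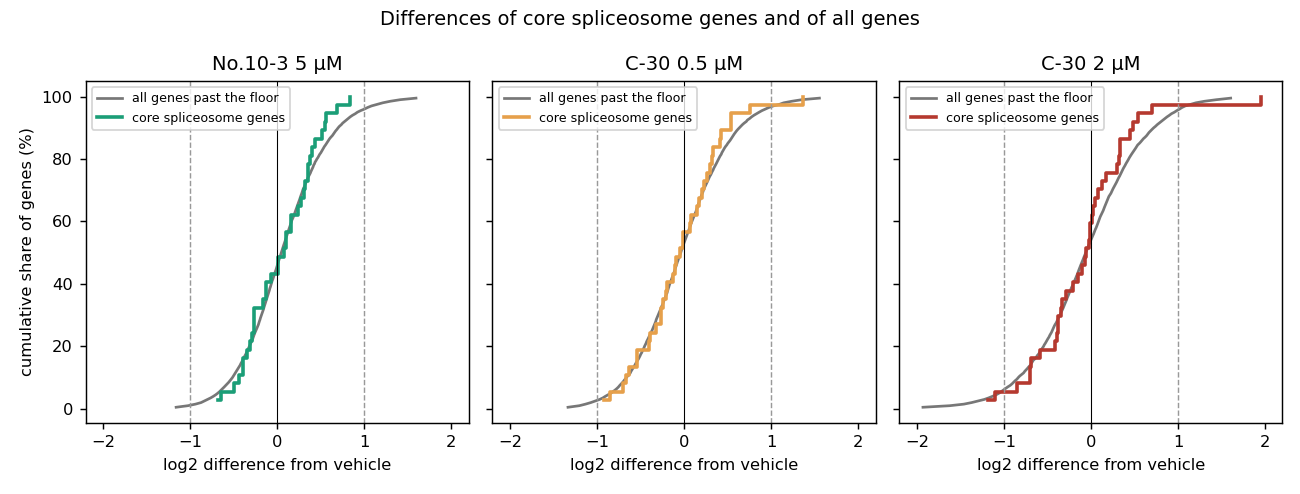
Cumulative share of genes (vertical axis, percent) by log2 difference from vehicle (horizontal axis) for the 37 core spliceosome genes (coloured steps) and for the 8852 genes past the floor (grey line), 1 panel for each treated array. Dashed lines mark 2-fold. The coloured steps run close to the grey line around 0 in all 3 panels, and the step at 1.95 in the panel of the higher C-30 dose is CDC40.

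The sequence before the start is shown here for the 3 genes that passed 2-fold against vehicle. At the higher C-30 dose they were 8.11% of the 37 genes, against 10.4% of all genes past the floor. The sequences are the 250 bases before the annotated start, from RefSeq on build GRCh38.p14, all on the plus strand and read 5′ to 3′. Capitals mark exact matches, on either strand and allowed to overlap, of the ETS core CCGGAAG, the GC box GGGCGG, the CCAAT box CCAAT, the TATA box TATAAA and the NRF1 motif GCGCATGC. The windows were chr6:110180177-110180426 for CDC40, chr17:43483725-43483974 for DHX8 and chr19:49085201-49085450 for SNRNP70.
CDC40: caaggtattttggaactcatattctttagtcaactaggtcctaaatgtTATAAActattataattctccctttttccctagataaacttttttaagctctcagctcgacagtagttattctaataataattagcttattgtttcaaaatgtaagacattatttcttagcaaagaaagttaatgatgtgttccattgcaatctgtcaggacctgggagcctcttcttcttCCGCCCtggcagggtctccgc
DHX8: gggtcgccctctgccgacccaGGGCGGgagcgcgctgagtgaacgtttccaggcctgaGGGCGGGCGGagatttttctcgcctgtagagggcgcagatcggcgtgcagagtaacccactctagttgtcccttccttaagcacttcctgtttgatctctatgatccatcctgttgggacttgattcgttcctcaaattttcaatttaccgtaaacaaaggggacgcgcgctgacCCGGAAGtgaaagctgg
SNRNP70: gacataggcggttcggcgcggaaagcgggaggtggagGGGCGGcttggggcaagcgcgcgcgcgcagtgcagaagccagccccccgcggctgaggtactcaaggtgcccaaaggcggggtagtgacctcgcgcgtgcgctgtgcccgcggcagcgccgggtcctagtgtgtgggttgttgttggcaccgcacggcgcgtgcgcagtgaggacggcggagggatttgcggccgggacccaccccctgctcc

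The window of CDC40 had 36.0% G and C, the lowest of the 41 windows of measured core spliceosome genes, whose median was 60.4%. Those of DHX8 and SNRNP70 had 56.0% and 72.0%. CDC40 held 1 TATAAA match, beginning 202 bases before the start, and 1 GC box match, beginning 21 bases before it. DHX8 held 3 GC box matches, of which a pair overlaps, and an ETS core match beginning 17 bases before the start, and SNRNP70 held 1 GC box match. Of the 37 measured genes, 34 had a window in the RefSeq table, and SF3B3, SNRPD1 and PRPF3 had none.

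Over the 41 windows of these 34 genes, the ETS core was found in 21, or 51.2%. The same letters were in 8.52% of all 35116 windows and in 15.1% of the 10742 windows of genes past the floor. The GC box was in 56.1% of the windows against 42.6% of all, and the CCAAT box in 24.4% against 32.0%. The TATA box was in 4.88% against 10.7% and the NRF1 motif in 4.88% against 2.63%. For these other motifs, windows of genes past the floor were not counted separately. A match is a run of letters and not a measured site. The 19 genes with an ETS core match had median differences of 0.10 with No.10-3, 0.08 at the lower C-30 dose and -0.01 at the higher C-30 dose. The 15 genes without it had 0.01, -0.09 and -0.11, and both sets spanned a wide range, from -1.18 to 0.70 and from -1.10 to 1.95 at the higher C-30 dose.

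Among the 3 genes that recognise the branch point and the 3′ splice site, SF1 and U2AF2 were lower on every treated array and U2AF1 stayed level. SF1, the branch point binding protein, had signals of 7.25 with vehicle, 6.56 with No.10-3, 6.62 at the lower C-30 dose and 6.86 at the higher C-30 dose. It was highest with vehicle, but all 4 values were under the background level, so its differences of -0.68, -0.63 and -0.39 are inexact. U2AF2, the large U2AF subunit that binds the polypyrimidine tract, had 11.15, 10.89, 10.76 and 10.57 in the same order, and was highest with vehicle and lowest at the higher C-30 dose. U2AF1, the small subunit that reads the AG at the intron end, had 11.29, 11.30, 11.24 and 11.30, the smallest range of all 37 genes at 0.06. This is a mean of 2 probe sets, which differed by -0.14 and 0.16 with No.10-3 and by -0.05 and 0.08 at the higher C-30 dose. The opposite signs partly cancel in the mean. At the lower C-30 dose both were below vehicle, by -0.07 and -0.03.

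The 9 genes of the SF3a and SF3b complexes, which hold the U2 snRNP on the branch point, went both ways on each treated array and none passed 2-fold. With No.10-3, 7 were above vehicle and 2 below, where 45.7% of all genes past the floor were below. The 7 became 4 once each array's median signal over genes past the floor was subtracted. The highest were SF3A3 at 0.55 and SF3B2 at 0.52. SF3B2 had 8.95 with vehicle, 9.46 with No.10-3, 8.82 at the lower C-30 dose and 8.97 at the higher C-30 dose, so it was high on the array of No.10-3 and level on the others. SF3B3, a large scaffold protein of SF3b, had 13.69, 13.57, 13.29 and 12.99 in that order, lowest at the higher C-30 dose. SF3A1, a subunit of SF3a, had 12.33, 12.34, 11.79 and 12.13 and was lower on both C-30 arrays.

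SF3B5, a small SF3b subunit, had 9.05 with vehicle, 8.66 with No.10-3, 9.35 at the lower C-30 dose and 8.72 at the higher C-30 dose, and was thus on opposite sides of vehicle at the 2 doses of C-30. SF3B6, the subunit that contacts the branch point, was above vehicle by 0.16, 0.41 and 0.49. SF3B1, the subunit most often mutated in blood cancers and the target of known splicing inhibitors, differed by 0.38, 0.15 and 0.08, and its vehicle signal was under the background level. SF3B4 differed by 0.10, -0.27 and -0.34. SF3A2 differed by at most 0.11 either way on the 3 treated arrays.

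The 7 Sm genes, whose proteins form the ring around snRNA, had median differences of -0.16, 0.07 and -0.07 on the arrays of No.10-3 and of the lower and the higher C-30 dose, the last of which turned positive after quantile normalization and after lowess correction. None passed 2-fold, and the widest ranges did not follow dose. SNRPE had 11.86 with vehicle, 11.43 with No.10-3, 12.41 at the lower C-30 dose and 11.80 at the higher C-30 dose, so that the lower dose of C-30 stood above the other 3 arrays. SNRPF had 8.44, 8.28, 7.52 and 8.33, and here the lower dose of C-30 stood below the others, at -0.92. SNRPG had 13.23, 12.73, 13.46 and 13.40, lowest with No.10-3.

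SNRPD2 had 12.28 with vehicle, 12.21 with No.10-3, 12.34 at the lower C-30 dose and 11.90 at the higher C-30 dose, and only the last stood apart. SNRPD1 was lower on each treated array, by -0.31, -0.26 and -0.42, and SNRPD3 higher on each, by 0.31, 0.18 and 0.13. SNRPB, which encodes the Sm protein B, differed by 0.28, -0.01 and 0.05. The RefSeq table lists 20 pseudogenes named after SNRPG and 11 named after SNRPE, and whether their transcripts reach these probe sets was not tested.

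Of the 5 proteins particular to U1 or U2, SNRNP70 stood apart. Its gene (Entrez 6625, chromosome 19, 49085451 to 49108604 in GRCh38.p14) had signals of 12.95 with vehicle, 12.31 with No.10-3, 12.28 at the lower C-30 dose and 11.86 at the higher C-30 dose. All 3 treated arrays were lower, with differences of -0.65, -0.67 and -1.10, of which the last lay at percentile 4.41 of genes past the floor. The other U1 proteins lay nearer to vehicle. SNRPA, another U1 protein, differed by -0.28, -0.32 and -0.14.

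SNRPC, which steadies the pairing of U1 with the 5′ splice site, had 8.67 with vehicle, 8.32 with No.10-3, 8.88 at the lower C-30 dose and 8.61 at the higher C-30 dose, with no common side. Its symbol has 20 named pseudogenes. The U2 proteins, which bind U2 snRNA as a pair, were above vehicle on all treated arrays. SNRPA1 had 10.88, 11.23, 11.22 and 11.32, and its partner SNRPB2 had 9.72, 10.04, 9.98 and 10.06. In both, vehicle was the lowest array and the 3 treated arrays lay within 0.11 of each other.

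Of the 6 tri-snRNP genes measured, 5 were below vehicle at each dose of C-30, though not the same 5, and none passed 2-fold against vehicle. After quantile normalization or lowess correction 4 were below at each dose. At the higher dose it was also 4 once each array's median signal over genes past the floor was subtracted. Of all genes past the floor, 53.1% were below vehicle at the lower C-30 dose and 54.1% at the higher. The medians of the 6 genes were -0.02 with No.10-3, -0.20 at the lower C-30 dose and -0.49 at the higher C-30 dose. SNRNP200, the helicase that unwinds U4 from U6, had 13.23 with vehicle, 12.97 with No.10-3, 12.69 at the lower C-30 dose and 12.38 at the higher C-30 dose. It was highest with vehicle and lowest at the higher C-30 dose, by -0.85. PRPF31, a U4 protein mutated in inherited retinal degeneration, had 9.97, 9.83, 9.26 and 9.27, and both C-30 arrays were low by about the same amount.

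PRPF6, a scaffold that bridges U5 with U4 and U6, had 9.03 with vehicle, 9.11 with No.10-3, 9.35 at the lower C-30 dose and 8.33 at the higher C-30 dose. It was therefore above vehicle at the lower dose of C-30 and below it at the higher dose. PRPF4, a U4/U6 protein, had 12.43, 12.99, 12.34 and 12.73 and was highest with No.10-3. Its partner PRPF3 differed by 0.24, -0.20 and -0.02. EFTUD2, the GTPase of the U5 snRNP, was lower by -0.27, -0.20 and -0.29.

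The 7 genes of the Prp19 complex and of the catalytic steps held the highest and the lowest difference of all 37 genes at the higher C-30 dose. Their medians were 0.40, 0.43 and 0.34 on the 3 treated arrays and stayed positive under each scaling tried, but the genes did not share 1 direction. On these arrays 1, 3 and 3 of the 7 were below vehicle, beside 45.7%, 53.1% and 54.1% of all genes past the floor. Under each of the other scalings 2 of the 7 were below vehicle at each dose of C-30. CDC40 (Entrez 51362, chromosome 6, 110180427 to 110232232) had 7.67 with vehicle, 8.51 with No.10-3, 9.04 at the lower C-30 dose and 9.62 at the higher C-30 dose. Its vehicle signal lay not far above the background level of that array, 7.32. Every treated array was higher than vehicle, by 0.84, 1.37 and 1.95, and the last of these exceeded 99.9% of genes past the floor. DHX8 (Entrez 1659, chromosome 17, 43483975 to 43544799) went the other way, with 13.25, 12.86, 12.40 and 12.06, or differences of -0.39, -0.85 and -1.18. Its difference at the higher C-30 dose lay at percentile 3.39 of genes past the floor.

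CDC5L, a scaffold of the Prp19 complex, had 7.77 with vehicle, 8.21 with No.10-3, 8.53 at the lower C-30 dose and 7.74 at the higher C-30 dose, so that the higher dose of C-30 was level with vehicle and the lower dose was not. BUD31, a protein of the activated spliceosome, had 8.36, 9.05, 8.90 and 9.06, with vehicle the lowest and the 3 treated arrays close together. SLU7, which helps to select the 3′ splice site in the second step, was above vehicle by 0.40, 0.43 and 0.54, although its vehicle signal was under the background level. PRPF19, the ubiquitin ligase that names the complex, differed by 0.17, -0.24 and -0.38. DHX15, the helicase that dismantles the spent spliceosome, differed by 0.36, -0.01 and 0.34.

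**Figure D2:**
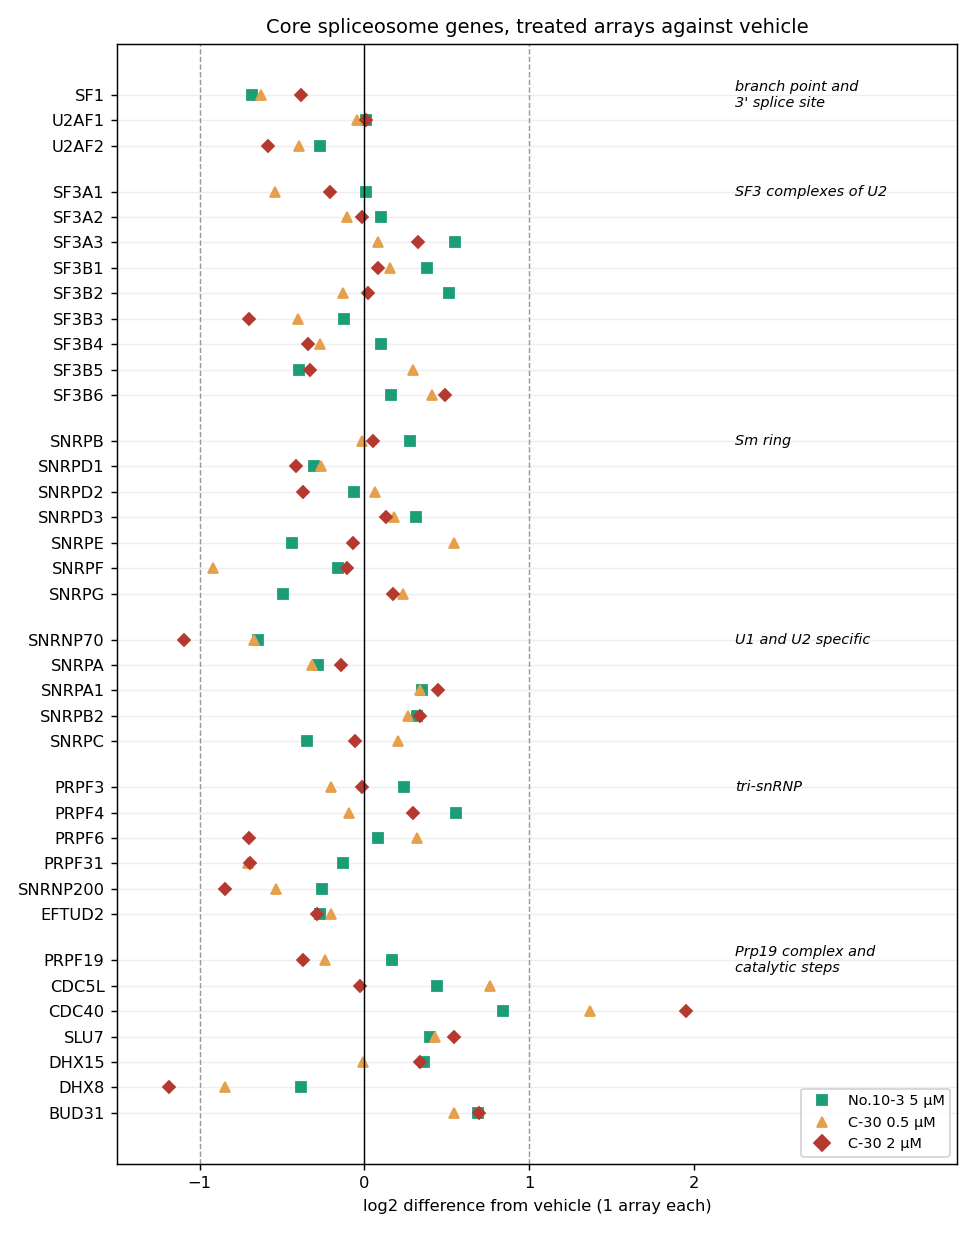
Log2 difference from vehicle (horizontal axis) for each of the 37 core spliceosome genes (rows, grouped by role), with 1 point for each treated array. Dashed lines mark 2-fold, and points that coincide cover each other. CDC40 lies past the right line on both C-30 arrays, and DHX8 and SNRNP70 lie past the left line on the array of the higher C-30 dose.

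**Figure D3:**
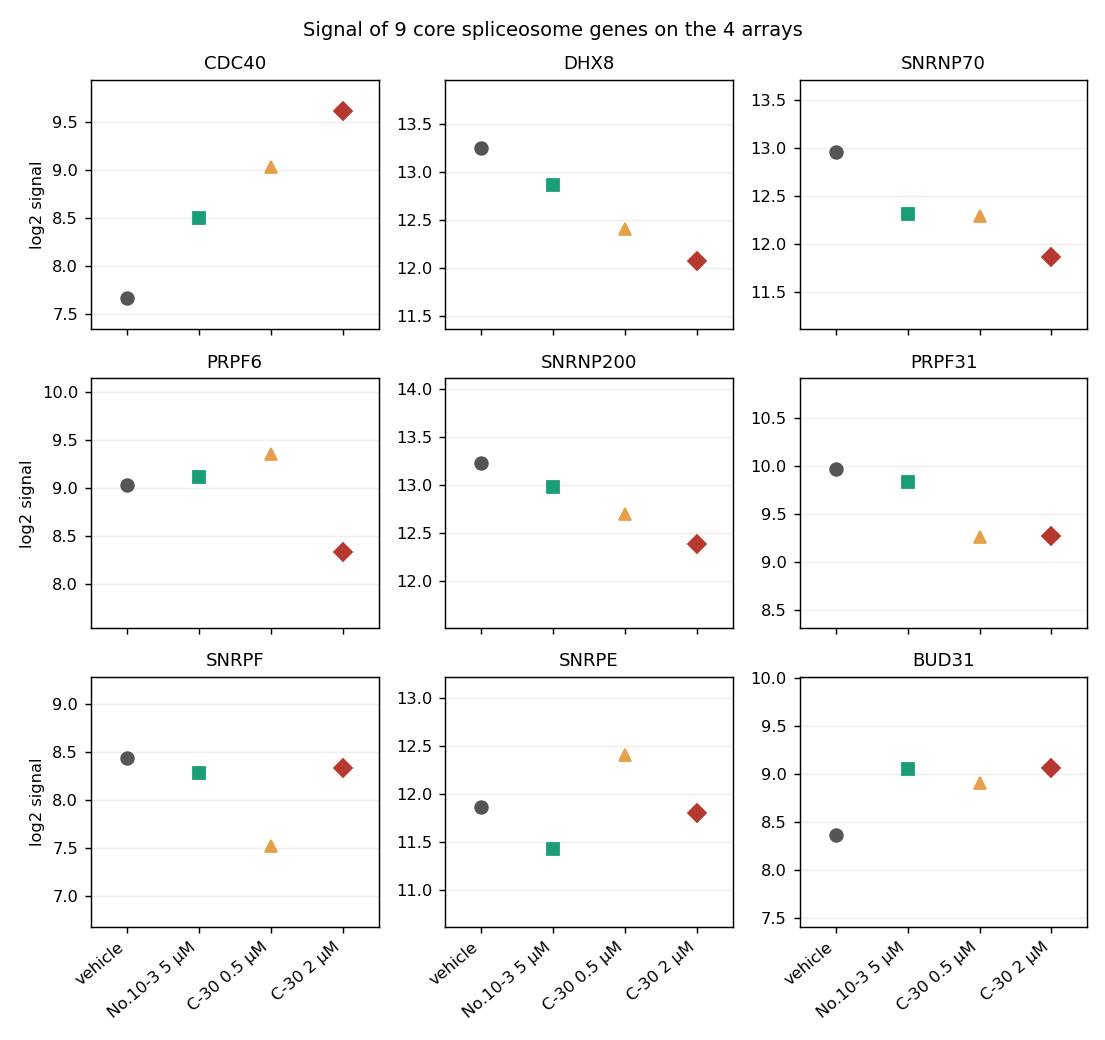
Log2 signal (vertical axis, the same span in every panel) of 9 core spliceosome genes on the 4 arrays (horizontal axis), 1 point per array. CDC40 goes from 7.67 with vehicle to 9.62 at the higher C-30 dose, DHX8 from 13.25 to 12.06, and SNRPF and SNRPE stand apart on the array of the lower C-30 dose.

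The 2 doses of C-30 were compared with each other directly. The median difference of the higher from the lower dose was 0.01 over the 37 genes, and -0.04 over all genes past the floor; the former turned to -0.02 with a floor at the 75th percentile. A single gene passed 2-fold, 2.70% against 3.06% of all genes past the floor, of which 1.94% were lower. This was PRPF6 at -1.02, which lay at -0.99 after a correction for signal and at -0.98 after centring. The next largest differences were 0.81 for SNRPF, -0.78 for CDC5L, -0.63 for SF3B5 and -0.61 for SNRPE. In SNRPF, CDC5L and SNRPE the lower dose stood farther from vehicle than the higher dose did, and SF3B5 lay on opposite sides of vehicle at the 2 doses.

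CDC40 was 0.58 higher at the higher dose, and SNRNP70 and DHX8 were lower by -0.43 and -0.34. The signals of vehicle, lower dose and higher dose stood in ascending order for 7 genes, SF3A3, SF3B6, SNRPA1, SNRPB2, CDC40, SLU7 and BUD31. They stood in descending order for 9, SF3B3, SF3B4, U2AF2, SNRNP70, SNRPD1, PRPF19, SNRNP200, EFTUD2 and DHX8. These are 18.9% and 24.3% of the 37 genes, near the 19.1% and 26.3% of all genes past the floor with such an order.

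The wider spliceosome was described by a further list of 96 genes, of which 80 were measured and 74 passed the floor. These are proteins that accompany U1 and U2, the LSm ring of U6, further tri-snRNP and Prp19-related proteins, the exon junction complex, the minor spliceosome and the factors that assemble snRNPs. Their median differences were 0.06 with No.10-3, 0.04 at the lower C-30 dose and 0.14 at the higher C-30 dose. With No.10-3, 1 gene passed 2-fold, 1.35% against 5.2% of all genes past the floor. It was the U2-associated gene U2SURP at 1.03, from 9.47 to 10.50, and the lowest was LSM5, of the U6 ring, at -0.95.

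At the lower C-30 dose, 3 genes of this list were higher past 2-fold and 1 lower, 5.41% against 5.93% of all genes past the floor. The higher genes were CWC22, which loads the exon junction complex, at 1.55, PRPF18, a factor of the second step, at 1.22, and the U1-associated PRPF39 at 1.00. The lower gene was PDCD7, of the minor spliceosome, at -1.13, from 8.46 to 7.32. CWC22 and PRPF18 were under the background level with vehicle and PRPF39 on all 4 arrays, so their differences are inexact.

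At the higher C-30 dose, 2 genes of the list were higher and 1 lower past 2-fold, 4.05% against 10.4%. CWC27, a prolyl isomerase family protein of the activated complex, went from 6.34, under the background level, to 7.84. TIA1, which helps U1 at weak 5′ splice sites, was at 1.13, from 7.41 to 8.54. CHERP, a U2-associated protein, was at -1.41, from 7.91 to 6.50, which was under the background level. The genes next in size on the lower side were GEMIN4, of the SMN complex that loads the Sm ring, at -0.98, the snRNP import adaptor SNUPN at -0.97, and SNRNP25, of the minor spliceosome, at -0.97.

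Of 38 measured genes of SR proteins and hnRNPs, the regulators of splice site choice, 37 passed the floor, and 1, 0 and 1 of them passed 2-fold on the arrays of No.10-3 and of the lower and the higher C-30 dose. That is 2.70%, 0% and 2.70% against 5.2%, 5.93% and 10.4% of all genes past the floor. The genes past 2-fold were HNRNPH3 at 1.12 with No.10-3 and SRSF3 at 1.19 at the higher C-30 dose. The medians were 0.13, -0.05 and -0.07. The proteasome, another large complex that cells make at all times, had 31 subunit genes past the floor and medians of -0.04, 0.31 and 0.25, with 1, 4 and 6 genes past 2-fold. That is 3.23%, 12.9% and 19.4% of them against 5.2%, 5.93% and 10.4% of all genes past the floor. Of these proteasome genes, the 4 and 6 of the C-30 arrays were all higher, led by PSMA4 at 1.23 at the lower C-30 dose and PSMC2 at 1.23 at the higher C-30 dose, whereas among the 37 core spliceosome genes CDC40 alone was higher past 2-fold on these arrays. The difference between the lists, or from all genes, was not tested.

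**Figure D4:**
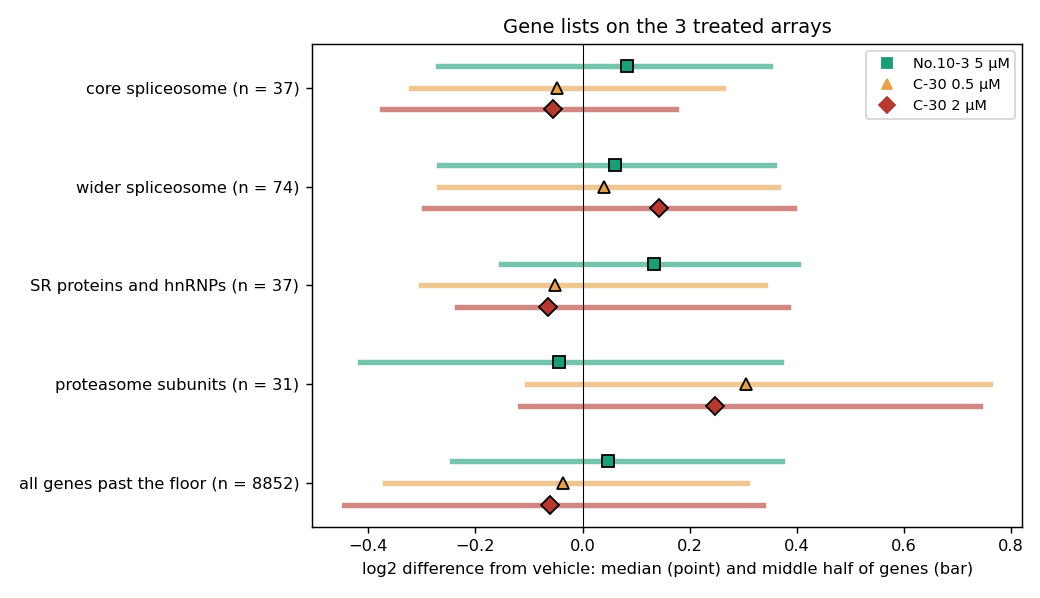
Median (points) and middle 50% of genes (bars) of the log2 difference from vehicle (horizontal axis) on the 3 treated arrays, for 4 gene lists and for all genes past the floor (rows, with the number of genes). The core spliceosome medians of 0.08, -0.05 and -0.06 lie near those of all genes, and the proteasome medians of 0.31 and 0.25 on the C-30 arrays lie to the right.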

How the data were processed

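The labels' protocols state that total RNA of the 4 DU145 samples was biotin-labelled with a WT PLUS kit. The authors deposited log2 signals; per the submitters' processing notes, the tools were RMA and Affymetrix Expression Console 1.3.0, and the log base is inferred from the range of the values. For that step, build and annotation were not given in the sources used here. RMA as usually run sets all arrays to 1 distribution, so a shift common to all genes would not show. Named signals reach 19.66, above a scanner's range, so fold values hold on this scale alone.

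Of 24351 probe sets, 17709 had 1 gene symbol, 0 had several and 6642 had none. Symbols were matched by Entrez identifier to RefSeq for GRCh38.p14, and all 17709 matched. For 20 genes with several probe sets the mean was taken, giving 17687 genes. The floor was 5.56 on the mean over the 4 arrays, and 8852 genes passed. Differences of 2 arrays were counted at 2-fold, with no test. Named with all 4 signals are the genes past 2-fold against vehicle and the 4 of widest range in each role; of other lists, at most the 4 largest differences each way. The genes described, the lists and the rules were chosen with earlier results of these data known. Alternatives were a 1.5-fold threshold, other floors (none, 75th percentile, the higher of the arrays compared), quantile normalization, a lowess correction (fraction 0.3), centring (each array minus its median signal over genes past the floor), use of the brightest probe set and the per-array tables, which differed by at most 5e-05. The counting was tested on simulated data with changes well past 2-fold, so it says nothing of genes near that threshold. Python 3.11.15, numpy 2.4.6, pandas 2.3.3, statsmodels 0.14.6 and matplotlib 3.10.9 were used.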

Additional observations from a re-analysis of the deposited data

How the results depend on the processing

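With 1 array per condition no array could be left out. No paired analysis was possible because each group holds a single array. At 1.5-fold, 4 core spliceosome genes passed with No.10-3, 7 at the lower C-30 dose, 8 at the higher and 5 between the doses, or 10.8%, 18.9%, 21.6% and 13.5% against 21.9%, 24.7%, 32.3% and 16.3% of all genes past the floor. At the higher C-30 dose 2 genes passed 2-fold after quantile normalization and 2 after the lowess correction, without SNRNP70. Between the doses 0 genes passed 2-fold after the lowess correction and 0 after centring, where PRPF6 lay just short of it. The median with No.10-3 was 0.047 with a floor at the 75th percentile, -0.0014 after quantile normalization, 0.0234 after lowess and -0.0169 after centring. At the lower C-30 dose it was 0.0137 after quantile normalization and 0.036 after lowess, and at the higher dose 0.0454 after quantile normalization, 0.0153 after lowess and 0.0067 after centring. Between the doses it was -0.0159 with the floor at the 75th percentile, 0.0796 after quantile normalization, 0.0529 after lowess and 0.0498 after centring. The cause was not tested. Centring moved the median of all genes past the floor with No.10-3 from 0.05 to -0.05. The sign of a single gene's difference depended on the scaling for 5, 5, 6 and 3 of the 37 genes in these comparisons, with differences of at most 0.0993, 0.1056, 0.1445 and 0.0701 either way. CDC40 stayed between 1.95 and 2.05 and DHX8 between -1.18 and -1.02 at the higher C-30 dose under every alternative run on single genes. Of all genes past 2-fold, 78.5% were higher with No.10-3, or 62.2% after centring, and 41.0% at the higher C-30 dose, or 51.7% after quantile normalization. The other floors, the brightest probe set and the per-array tables left the counts of core spliceosome genes past 2-fold as they were. Signals under the background level limit SF1, and in part SF3B1 and SLU7.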

Other observations

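Across the 37 core spliceosome genes, the Spearman correlation of the difference with genomic span, whose median was 16945 bases, was 0.19 with No.10-3, -0.10 at the lower C-30 dose and -0.16 at the higher C-30 dose. Over the 8852 genes past the floor it was 0.19, 0.10 and 0.07. With mean signal the correlations were -0.27, -0.36 and -0.32 over the 37 genes and 0.01, -0.07 and -0.09 over all genes past the floor. These are correlations across genes of the same arrays, which share the vehicle array and are not independent replicates.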
